A study of Mus musculus with 686 samples.

Results

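The miRNAs miR-204 and miR-211 were followed as 3 mature products, miR-204-5p, miR-204-3p and miR-211-5p, which are 3 of the 1964 miRNAs listed for the series. They were taken by name from the miRNA count table, and their levels are given as CPM, counts per 1000000 miRNA counts of a library. The series holds 686 small RNA libraries of 13 tissues, all from female mice of the strain BALB/cAnNTac. Mice flown to the International Space Station (FL) were set beside a habitat ground control housed as closely to flight conditions as possible (HGC) and a vivarium ground control in ordinary cages (VGC). Mice of the live animal return (LAR, 348 libraries) were killed on Earth a few days after splashdown, and their tissues were snap frozen. Mice of the terminated group (TERM, 338 libraries) were killed on the station, or on Earth at the matched time, and their carcasses were frozen whole and thawed for dissection, except that the spleen was taken fresh. All arms held mice of 3 and 8 months, save that brain of LAR and pancreas of TERM came from mice of 3 months alone. LAR and TERM therefore differ in days of flight, return, killing, freezing and thawing, which cannot be told apart here.

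MicroRNAs are short RNAs that pair with messenger RNAs, mainly through bases 2 to 8 of the miRNA, the seed, and lower their translation and stability. The hairpins of miR-204 and miR-211 lie inside Trpm3 and Trpm1, genes of a family of cation channels, and miR-211 is best known from melanocytes, where the factor MITF drives its host gene. miR-204 is known from pigment and choroid plexus epithelium, kidney and pancreatic beta cells, and both miRNAs repress Runx2, a factor of the bone lineage that opposes fat cell formation. The arm on the 5′ side of a hairpin is called 5p and that on the 3′ side 3p.

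The mature sequences are shown because miR-204-5p and miR-211-5p are so alike that they can share targets and reads. All 3 members were found in the RefSeq table for GRCm38.p6, an older build than the GRCm39 to which the authors mapped. Capitals mark the seed, and each sequence is written 5′ to 3′.
mmu-miR-204-5p: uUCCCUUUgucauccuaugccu
mmu-miR-211-5p: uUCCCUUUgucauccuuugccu
mmu-miR-204-3p: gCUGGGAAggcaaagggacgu
mmu-miR-211-3p: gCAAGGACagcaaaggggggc
mmu-miR-7670-3p: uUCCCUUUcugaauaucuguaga
The 5p arms were identical at 21 of 22 bases, and the difference was A17U, counted from the 5′ end of miR-204-5p. Their seeds were the same, and the opposite arms shared only 14 of 21 bases when laid end to end. Among the listed miRNAs with a RefSeq sequence, 1673 in all, 3 carried this seed. The third was miR-7670-3p, an unrelated miRNA whose median was 0 CPM in every tissue.

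The hairpins are printed with both mature arms in capitals, since the levels of the arms are compared with each other further on. Mir204 lies at chr19:22750605-22750672 on the plus strand of GRCm38.p6, and Mir211 at chr7:64205806-64205911, also on the plus strand.
Mir204: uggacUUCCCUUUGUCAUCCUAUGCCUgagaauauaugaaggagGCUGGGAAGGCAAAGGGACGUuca
Mir211: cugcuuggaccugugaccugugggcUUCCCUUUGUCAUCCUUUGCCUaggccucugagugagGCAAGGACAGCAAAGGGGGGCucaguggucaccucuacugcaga
In the GENCODE annotation of GRCm38 each hairpin lay within its host gene on the same strand, and 0 exons of the host overlapped either hairpin, so both were intronic. The files hold no count of the host messenger RNAs that could be set beside them.

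A library held between 0.181 M and 30.5 M miRNA counts, the median being 3.88 M (M, 1000000 counts), and pancreas was the shallowest tissue with a median of 0.866 M. By the profile of 727 other miRNAs, 166 libraries were closer to another tissue than to their label. Of these, 119 fell in 11 of the 44 library pools, which held 168 libraries and are called mismatch pools here. All 25 brain libraries had the brain profile, whereas 46 of 57 mesenteric fat (MAT) libraries did not have that of MAT. The brain list of neuronal and glial miRNAs summed to a median of 223930 CPM in brain, with 7 of 7 members above a median of 10 CPM, against 307 to 1409 CPM in the other tissues. No library was relabelled or left out of the values given first, and for many of the differences the value outside these pools is given as well.

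miR-204-5p was by far highest in the brain, where it ranged from 3935 to 40810 CPM with a median of 15243 CPM (n = 25). That was 1.52% of all miRNA counts and the 13th highest median of any miRNA there. Kidney came next with 108 to 4348 CPM and a median of 1750 CPM (n = 57), so that the median in brain was 8.71-fold higher. In the 9 mice with both tissues, brain exceeded kidney in 9, by 2.61 ± 0.31 (mean ± SE) on the scale of log2(CPM + 1). In the exact 2-sided sign-flip test within mice this gave p = 0.00391, the smallest that 9 pairs allow, and an adjusted p of 0.0165 over the 12 neighbouring pairs of tissues. Outside the mismatch pools 6 of 6 mice were higher in brain, by 3.00 ± 0.35, and the adjusted p was 0.075, the exact p being the smallest that 6 pairs allow (0.0312). Outside brain, 6 libraries reached the lowest brain value. Of these, 4 had a brain profile, were in mismatch pools and were labelled BAT (brown fat), diaphragm, heart and pancreas, and the other two were kidney libraries.

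Kidney in turn exceeded thymus in 35 of 55 mice, by 0.62 ± 0.21, with an adjusted p of 0.0165 in the permutation test. A plateau followed. Thymus had a median of 1067 CPM, heart 991, gonadal fat (GAT) 910, diaphragm 872, BAT 865, subcutaneous fat (SCAT) 801 and spleen 551 CPM. None of the neighbouring pairs from thymus down to MAT, whose median was 325 CPM, passed the permutation test, with adjusted p from 0.269 to 0.971. Only neighbours in this order were tested. Without the mismatch pools spleen exceeded MAT in 18 of 20 mice, by 0.88 ± 0.21 with an adjusted p of 0.0012. With TMM factors over all libraries heart exceeded GAT in 33 of 40 mice, by 0.97 ± 0.18 with an adjusted p of 0.00024, and kidney over thymus no longer passed (0.47, adjusted p = 0.0541).

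Pancreas, lung and liver stood at the lower end. Pancreas ranged from 19.7 to 10230 CPM with a median of 165 CPM (n = 39), and its highest value was an FL library of LAR with a brain profile that carried 68015 CPM of the neuronal miR-124-3p. MAT exceeded pancreas in 27 of 37 mice, by 0.91 ± 0.30 with an adjusted p of 0.0165. The islet list, 6 miRNAs led by miR-375-3p, summed to 83116 CPM in the median pancreas library and had all 6 members above a median of 10 CPM. Lung had a median of 102 CPM and liver one of 19.6 CPM, with 44 of 56 mice higher in lung, by 1.87 ± 0.38 and with an adjusted p of 0.00024. The median in brain was 776-fold that in liver in CPM, and 415-fold with TMM factors over all libraries, where liver stood at 36.0. Geometric means of CPM differed 488-fold.

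**Figure D1:**
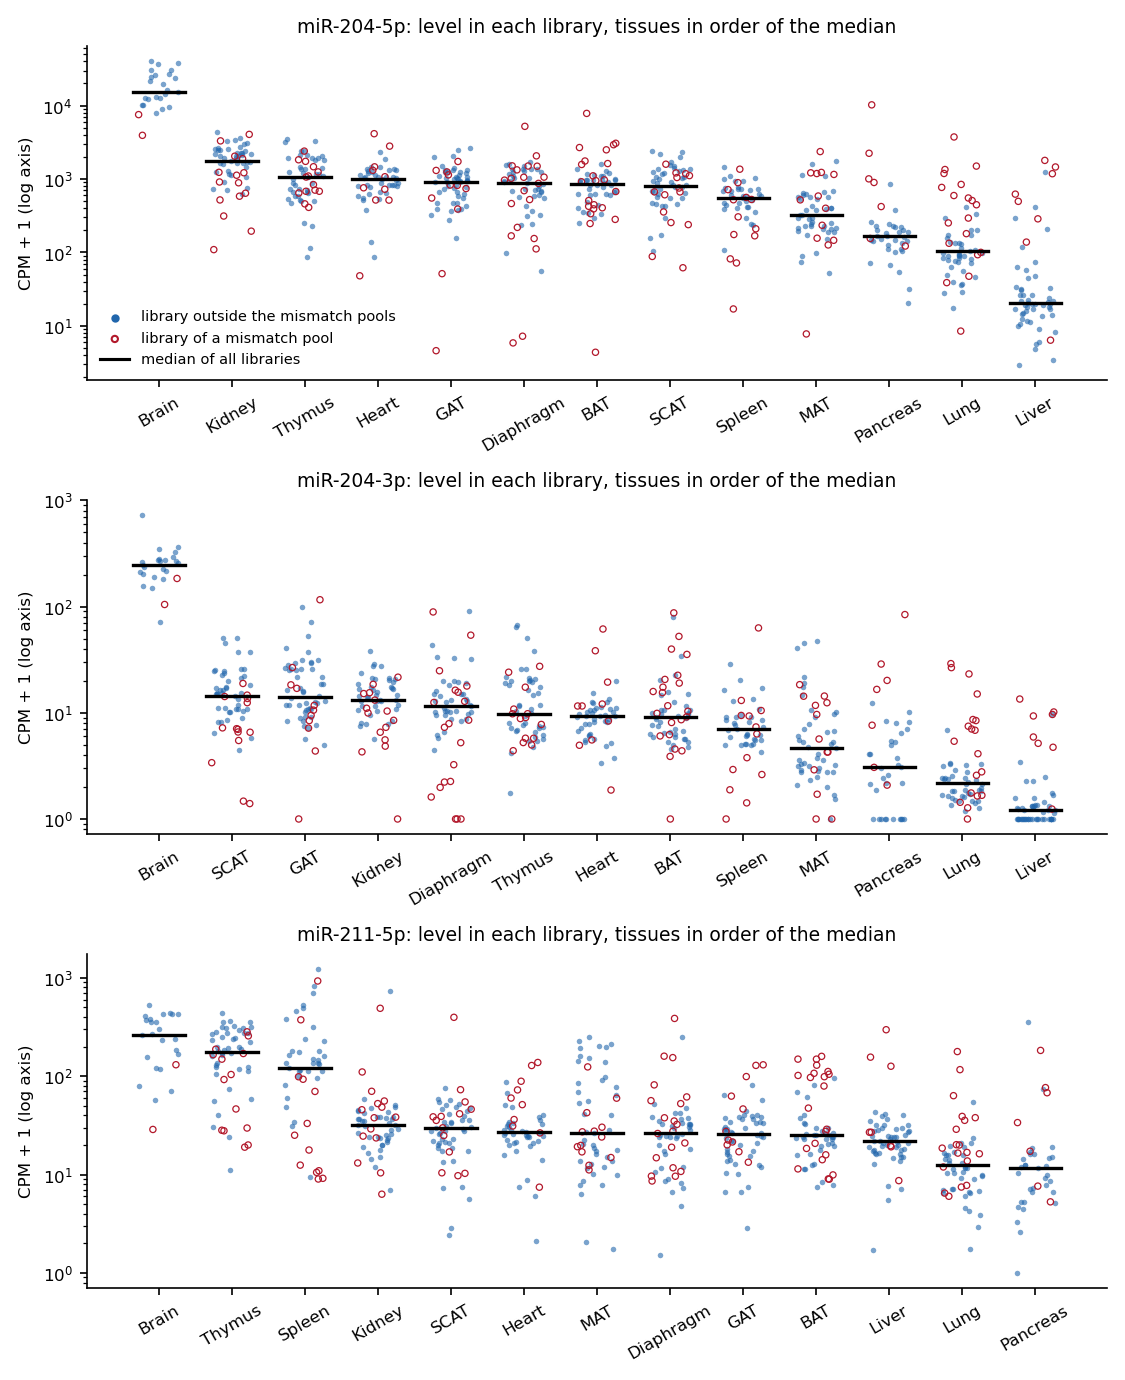
Level of miR-204-5p, miR-204-3p and miR-211-5p in every library (CPM + 1, log axis), with tissues in the order of their medians (black lines). Open circles are libraries of the 11 mismatch pools. Brain had the highest median for each miRNA, and thymus and spleen came next for miR-211-5p only. In LAR alone the miR-211-5p median of brain, 175 CPM, was below those of thymus and spleen, 210 and 179 CPM.

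miR-204-3p, the minor arm, followed miR-204-5p at a far lower level. Brain again led with 69.8 to 732 CPM and a median of 244 CPM (n = 25). SCAT was second with a median of 13.3 CPM and a range of 0.397 to 49.8 CPM, so the median in brain was 18.3-fold higher. Brain was higher in 9 of 9 mice with both tissues, by 4.05 ± 0.36 on the log2(CPM + 1) scale, with an adjusted p of 0.0234 in the exact test. Outside the mismatch pools it was higher in 6 of 6 mice, by 3.89 ± 0.43 with an adjusted p of 0.0938. From SCAT to lung the medians fell from 13.3 to 1.19 CPM with no neighbouring pair past the test. MAT over pancreas passed outside the mismatch pools (adjusted p = 0.043), pancreas over lung with own-profile libraries (0.0272) and BAT over spleen with TMM factors (0.04). Liver was last at 0.217 CPM, where 33 of 58 libraries had a count, and lung exceeded it in 41 of 56 mice with an adjusted p of 0.0096. With a pseudocount of 10 this pair no longer passed (0.17, adjusted p = 0.117). The liver median was below 0.677 CPM, the level of 3 counts at the median liver depth.

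The 5p arm made up most of the sum of both arms of miR-204 in every tissue. Per library with at least 100 counts of miR-204-5p its median ran from 98.6% in GAT to 99.4% in kidney. Brain, with the highest level, stood at 98.8%. The 3p arm thus had a median share between 0.639% in kidney and 1.36% in GAT, a 2.13-fold range that was not tested. Single libraries went as low as 75.1% in diaphragm and 77.2% in GAT. Over the 13 tissue medians of log2(CPM + 1), miR-204-3p followed miR-204-5p with a Pearson's r of 0.96, a description in which both arms share libraries and depth.

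miR-211-5p differed from its paralog in where it came next after the brain. Brain ranged from 27.8 to 531 CPM with a median of 258 CPM (n = 25), thymus from 10.2 to 435 CPM with a median of 176 CPM (n = 58) and spleen from 8.02 to 1236 CPM with a median of 120 CPM (n = 47). These 3 tissues were not separated from each other by the test within mice. Thymus was above brain in 6 of the 9 shared mice, brain minus thymus was -0.34 ± 0.43 with an adjusted p of 0.615, and thymus minus spleen was 0.07 ± 0.36 with an adjusted p of 0.918. The order of the brain and thymus medians and the sign of this difference within mice thus disagreed. The order also changed with the extraction, as brain had a median of 175 CPM in LAR, below thymus at 210 and spleen at 179 CPM, and of 352 CPM in TERM, above thymus at 156 and spleen at 98.9 CPM.

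A clear step followed from spleen to kidney, whose median was 30.9 CPM. Spleen was higher in 27 of 35 mice, by 1.84 ± 0.38 on the log2(CPM + 1) scale with an adjusted p of 0.00096. From kidney to liver the medians lay between 30.9 and 21.1 CPM with no neighbouring pair past the test. With TMM factors over all libraries 3 of these pairs passed, as SCAT minus heart was -0.81, diaphragm minus GAT 0.60 and GAT minus BAT -0.64 on the log2 scale, with adjusted p of at most 0.0167. Lung and pancreas closed the order with 11.5 and 10.7 CPM, and liver exceeded lung in 44 of 56 mice, by 0.82 ± 0.21 with an adjusted p of 0.00096. In CPM liver ranked last of 13 for miR-204-5p and 11th for miR-211-5p, where the next higher tissue, BAT, was not separated from it (adjusted p = 0.219). With TMM factors over all libraries its miR-211-5p median of 37.3 was exceeded only by brain, thymus, spleen and heart.

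The ratio of the paralogs had its highest medians in liver and the lymphoid tissues and its lowest in brain and kidney. The median library held 1.21 counts of miR-211-5p per 100 of miR-204-5p in brain and 1.69 in kidney. BAT, GAT, SCAT, heart and diaphragm lay between 2.58 and 3.17, pancreas at 4.3 and lung at 9.17. MAT stood at 5.85, but at 3.73 in LAR and 28.4 in TERM, where it was above spleen at 17.7 and thymus at 17.5, and at 17.9 in its 11 libraries with the MAT profile. Thymus reached 14.9 and spleen 21.8, and liver reached 28.9 in the 23 of its 58 libraries that had the 100 counts of miR-204-5p asked for. In liver this filter kept the libraries with more miR-204-5p counts, which lowers the ratio. Over all 58 liver libraries the median was 0.00211% of miRNA counts for miR-211-5p and 0.00196% for miR-204-5p. When the mismatch pools were left out, brain stayed at 1.21 and thymus moved to 16.2, spleen to 24.9 and liver to 56.4, the last with 16 libraries. The 5p arms differ by 1 base of 22, and the files hold no reads, so how reads were divided between the paralogs was not tested.

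The other arm of Mir211 differs from that of Mir204 at more bases and gives a separate view of the same hairpin. miR-211-3p had a count in 45 of 58 thymus libraries and in 29 of 47 spleen libraries, and its medians there were 0.655 and 0.277 CPM. In the other 11 tissues between 3.33% and 20.0% of the libraries had a count and the median was 0. The median thymus library would need 0.607 CPM to hold 3 counts, and the median spleen library 0.738 CPM. The thymus median was thus just above 3 counts and the spleen median below 3 counts. Brain had 10 counts in 153 M miRNA counts, over 3 of 25 libraries, beside a miR-211-5p median of 258 CPM. As a share of all miR-211 counts summed over libraries, miR-211-3p made up 0.502% in thymus (exact 95% interval 0.442 to 0.568%), 0.299% in spleen (0.250 to 0.355%) and 0.0258% in brain (0.0124 to 0.0474%). These intervals cover counting error only. The shares outside the mismatch pools were 0.564%, 0.310% and 0.0132%. MAT, with 35 counts of miR-211-3p, had a share of 0.467% (0.326 to 0.649%), close to that of thymus, and lung, with 18 counts, one of 0.302% (0.179 to 0.476%), close to that of spleen. The share was 0.174% in spleen of LAR and 0.485% in spleen of TERM, and 0.430% and 0.602% in thymus. MAT had 0.213% on 4 counts in LAR and 0.552% on 31 counts in TERM, and lung 0.375% and 0.217%. Outside the mismatch pools MAT stood at 0.569%. Kidney stood at 0.0694% on 10 counts, and the other tissues lay between 0.0928% in heart and 0.275% in SCAT.

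**Figure D2:**
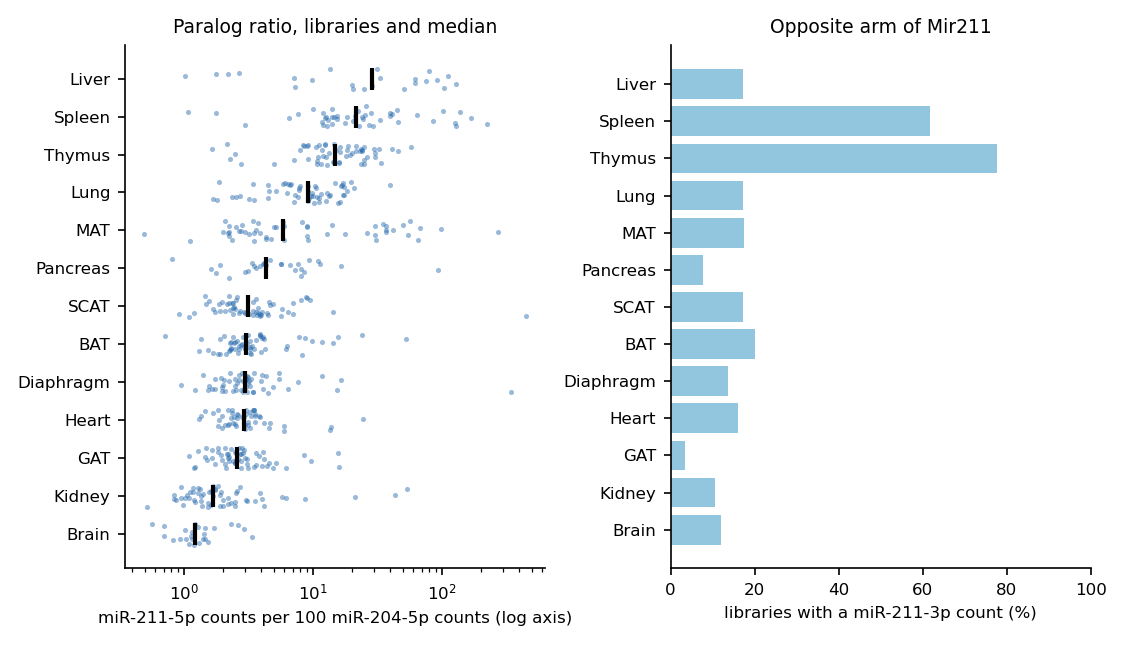
Left, counts of miR-211-5p per 100 counts of miR-204-5p in each library with at least 100 miR-204-5p counts (log axis), with the median as a black mark. Right, percentage of libraries of each tissue with a count of miR-211-3p. Thymus and spleen stood high in both panels, and brain had the lowest ratio, 1.21, and a count in 12.0% of its libraries.

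Single libraries with isolated high miR-211-5p levels also carried the miRNAs of lymphocytes. One kidney library of FL in LAR, mouse 4, had 731 CPM, which was 31.7-fold its group's median, while its miR-204-5p was at 0.985-fold of that median. In the same library miR-150-5p, miR-142a-3p and miR-142a-5p, the 3 miRNAs of the lymphocyte list, stood 23.3-fold, 35.1-fold and 19.0-fold above the group median. One pancreas library of VGC in LAR, mouse 14, had 353 CPM of miR-211-5p, 31.6-fold the median, with these 3 miRNAs 5.04-fold to 8.11-fold above it. Both had the profile of their own tissue and were outside the mismatch pools. The highest spleen library, FL in TERM of mouse 1 with 1236 CPM, differed. Its miR-211-3p stood at 6.99 CPM, but its lymphocyte miRNAs were only 1.03-fold to 1.38-fold above it, and its miR-124-3p, at 431 CPM, was 71.2-fold above it.

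The miRNAs whose 13 tissue medians were most like those of each member were ranked among 599 with a highest tissue median of at least 10 CPM. For miR-204-5p these were miR-125b-1-3p (r = 0.83), miR-700-5p (0.81), miR-129-2-3p (0.78), miR-125b-5p (0.78) and miR-702-3p (0.78). For miR-204-3p they were miR-702-3p (0.88), miR-7689-3p (0.88), miR-129-2-3p (0.87), miR-3475-3p (0.86) and miR-139-3p (0.86). All these had their highest median in brain. For miR-211-5p they were miR-592-5p (0.91), miR-298-5p (0.83), miR-669f-3p (0.82), miR-128-3p (0.82) and miR-669e-5p (0.80), of which miR-669f-3p was highest in thymus and miR-669e-5p in spleen. The members miR-204-5p and miR-211-5p had an r of only 0.65 with each other. Without the mismatch pools 4 of the 5 remained for miR-204-5p, 4 for miR-204-3p and 3 for miR-211-5p. These are descriptions over 13 points that share libraries and depth.

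The question put to the arms was whether flight, apart from housing, changed these miRNAs. In the edgeR quasi-likelihood test with Benjamini-Hochberg adjustment over all miRNAs of a tissue, FL against HGC gave 0 calls among 39 tests of the members in LAR, where 1.54% of all miRNA tests were called. At an unadjusted p under 0.05 there were 7 of the 39, beside 12.3% of all tests, and the lowest adjusted p was 0.0904. In TERM 1 of 39 was called, against 0.307% of all tests, and 2 of 39 had an unadjusted p under 0.05, beside 9.17%. The median SE of a log2 fold change was 0.52 in LAR and 0.53 in TERM, so even changes above 2-fold in a single tissue could go uncalled with these groups. In LAR the log2 fold changes of the members ran from -1.17 to 1.89 with 0 called.

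In the brain the arms overlapped. In LAR, miR-204-5p ranged from 9019 to 30839 CPM in 4 FL mice and from 9482 to 26191 CPM in 4 HGC mice, a log2 fold change of 0.03 ± 0.56 (SE). In TERM it ranged from 3935 to 36903 CPM in 4 FL mice and from 8029 to 38105 CPM in 5 HGC mice, a change of -0.49 ± 0.52. The lowest library was in a mismatch pool, and outside these pools the change was -0.17 ± 0.48. The brain list and the list of ciliated epithelium and choroid plexus had 0 of 7 and 0 of 6 members called in either extraction. The edgeR test called 0 of 1030 brain miRNAs in LAR and 0 of 1008 in TERM (13 and 27 at an unadjusted p under 0.05). The latter list is not particular to choroid plexus, as it summed to a median of 693 CPM in brain and 4289 CPM in lung. In the kidney miR-204-5p differed between FL and HGC by -0.15 ± 0.37 in LAR and by -0.29 ± 0.45 in TERM, with medians of 1724 against 1789 CPM and 1605 against 2045 CPM. The kidney list had 0 of 5 members called in either, as had 0 of all 987 kidney miRNAs tested by edgeR in LAR and 0 of 1040 in TERM (83 and 38 at an unadjusted p under 0.05). It is not particular to kidney, as it summed to a median of 50268 CPM there and 90255 CPM in liver.

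miR-211-5p in kidney of LAR was 1.70 ± 0.60 higher in FL on the log2 scale, with an adjusted p of 0.357. The 10 FL libraries ran from 13.6 to 731 CPM with a median of 23.1 CPM, and the 10 HGC libraries from 10.9 to 48.0 CPM with a median of 23.6 CPM, so that the medians were alike. The highest FL value was that of the mouse described above. In the Wilcoxon alternative the difference of means of log2 values was 0.46 with an adjusted p of 1.

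In pancreas of LAR, miR-204-5p was 1.5 ± 0.84 higher in FL with an adjusted p of 0.485. FL ranged from 31.2 to 10230 CPM with a median of 172 CPM (n = 10) and HGC from 67.3 to 2242 CPM with a median of 210 CPM (n = 8). The groups overlapped, and the highest FL library was the one with a brain profile. Outside the mismatch pools, which held it, the difference was -0.26 ± 0.43 with an adjusted p of 0.924. Against VGC, whose 10 libraries ran from 100 to 375 CPM, the difference was 2.76 with an adjusted p of 0.0572 and changed to -0.42 without the mismatch pools. The islet list had 0 of 6 and the acinar list 0 of 3 tested members called in FL against HGC in LAR and in TERM, where edgeR called 0 of 814 and 0 of 702 pancreas miRNAs (96 and 75 at an unadjusted p under 0.05).

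Among the fat depots the smallest adjusted p was that of miR-204-5p in SCAT of LAR. FL ranged from 543 to 1329 CPM with a median of 754 CPM (n = 9) and HGC from 254 to 2313 CPM with a median of 1293 CPM (n = 10), a log2 fold change of -0.82 ± 0.29 with an adjusted p of 0.0904. With the filter filterByExpr the adjusted p was 0.0456, and outside the mismatch pools the change was -0.98 ± 0.30 with an adjusted p of 0.120. In BAT of LAR miR-204-5p differed by -1.17 ± 0.55 and miR-204-3p by -1.14 ± 0.51, both with adjusted p above 0.14, and without the mismatch pools the differences were 0.01 and -0.12. In GAT of LAR miR-204-3p was 1.65 ± 0.59 higher in FL with an adjusted p of 0.207, and 1.21 ± 0.54 higher outside the mismatch pools. The fat list had 0 of 3 members called in each of the 4 depots in both extractions. Its median log2 fold change in SCAT of LAR was -0.60, beside 0.06 over all miRNAs there, and its part in the miR-204-5p difference was not tested. Of all miRNAs, edgeR called 68 of 982 in BAT and 50 of 935 in SCAT of LAR, and 0 in GAT and MAT of LAR and in all 4 depots of TERM, with 48 to 132 per fit at an unadjusted p under 0.05 in the latter 6.

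The call of TERM was miR-211-5p in lung, which fell by 2.13 on the log2 scale in FL (SE 0.60, adjusted p = 0.0485). In that comparison 3% of all lung miRNAs were called. FL ranged from 0.740 to 22.7 CPM with a median of 5.96 CPM (n = 10), HGC from 5.05 to 177 CPM with a median of 18.7 CPM (n = 9) and VGC from 2.88 to 62.4 CPM with a median of 12.9 CPM (n = 9). The FL and HGC groups overlapped. The HGC libraries of mice 12 and 16, with 116 and 177 CPM, had the profile of spleen, were in mismatch pools and held 56145 and 101811 CPM of miR-150-5p. The lymphocyte list summed to between 4012 and 16911 CPM in FL and between 1062 and 113990 CPM in HGC. Its 3 members had a median log2 fold change of -1.21, against -0.06 over all lung miRNAs, with 0 of 3 called, and all 3 had a median above 10 CPM in lung. The difference outside the mismatch pools was -0.56 with an adjusted p of 0.767. Leaving out each of the 28 libraries in turn, the call held in 7 cases and was lost in 21, and the highest adjusted p, 0.0983, came without mouse 16 of HGC. The log2 fold change stayed between -2.41 and -1.77.

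**Figure D3:**
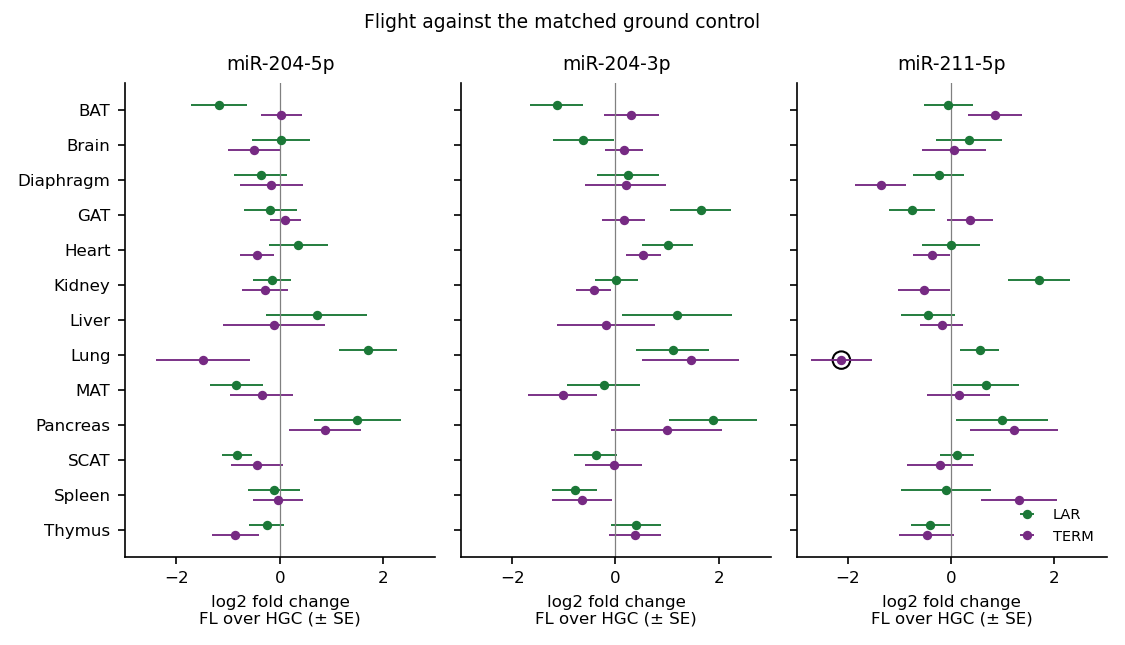
Log2 fold change of FL over HGC for each member and tissue (points, with SE as bars), for LAR in green and TERM in purple. The ring marks an adjusted p under 0.05, reached by miR-211-5p in lung of TERM alone. The other points scatter on both sides of 0.

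The difference between the flight effects of LAR and TERM was tested in 1 fit over both extractions, in which 1.04% of all tests and 5.65% of those in lung were called. Of 39 member tests 1 was called, again miR-211-5p in lung, where FL minus HGC in LAR exceeded that in TERM by 2.62 ± 0.71 with an adjusted p of 0.0142. In LAR the medians were 15.2 CPM in FL and 12.0 CPM in HGC. It rests on the same TERM libraries. Without the mismatch pools it was 0.94 with an adjusted p of 0.584, and of the 58 libraries left out in turn only HGC of TERM, mouse 16, took the call away (adjusted p = 0.0510).

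The controls were compared in the same fits. FL against VGC gave 0 of 39 member calls in LAR and 0 of 39 in TERM, against 0.736% and 0.712% of all tests. At an unadjusted p under 0.05 there were 2 and 3, beside 11.3% and 9.77% of all tests. HGC against VGC, which differed in the habitat, cage density, matched climate and the mouldy food bars that HGC shared with FL, gave 0 of 39 in each, against 0.176% and 0.251%, with 4 and 4 at an unadjusted p under 0.05, beside 11.4% and 9.29%. These comparisons share arms with each other.

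Age was compared over the 3 arms in the 12 tissues of each extraction that held both ages. In the edgeR test 0 of 36 member tests were called in LAR and 0 of 36 in TERM, against 0.0785% and 1.33% of all tests, with 5 and 6 at an unadjusted p under 0.05, beside 10.4% and 14.0%. The thymus held the smallest adjusted p of LAR. There miR-204-5p ranged from 494 to 2129 CPM with a median of 1063 CPM at 3 months and from 647 to 3469 CPM with a median of 1931 CPM at 8 months (n = 15 each), a log2 difference of 0.76 ± 0.24 with an adjusted p of 0.114.

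The thymus result changed with the libraries. Without the mismatch pools miR-204-5p rose by 0.92 with age, with an adjusted p of 0.0166, over 11 and 13 libraries with medians of 1016 and 1931 CPM. In that fit 13.3% of all thymus miRNAs were called. With libraries of the thymus profile alone the rise was 1.02 with an adjusted p of 0.0082, and DESeq2 on all libraries gave 0.78 with an adjusted p of 0.0326. In TERM the difference was 0.53 ± 0.37 with an adjusted p of 0.460. miR-204-3p was 0.76 ± 0.41 higher at 8 months in LAR and 1.12 ± 0.39 higher in TERM, with adjusted p of 0.348 and 0.122. miR-211-5p differed by 0.18 ± 0.31 and -0.39 ± 0.44. The fat list, whose member miR-378a-3p is also abundant in muscle, summed in thymus of LAR to a median of 42152 CPM at 3 months (15683 to 153699) and 82338 CPM at 8 months (10976 to 202136). In TERM it went from 17864 CPM (10766 to 40756) to 38303 CPM (6967 to 120093). All 3 of its members were above a median of 10 CPM in thymus. The muscle and heart list, with 4 of 5 members above that level, went from 5311 CPM (263 to 62006) to 11195 CPM (347 to 37972) in LAR and from 1865 CPM (1149 to 35416) to 5775 CPM (540 to 356911) in TERM. The part of these lists in the age difference was not tested, and in bulk tissue fewer cells of a type and less RNA per cell cannot be told apart.

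In the spleen it was miR-211-5p that stood lower at 8 months, in both extractions and without passing the adjusted test in either. In LAR it ranged from 8.17 to 928 CPM with a median of 430 CPM at 3 months (n = 10) and from 8.34 to 464 CPM with a median of 120 CPM at 8 months (n = 11), a log2 difference of -1.49 ± 0.62 with an adjusted p of 0.389. In TERM the medians were 137 and 48.0 CPM (n = 13 each), a difference of -1.63 ± 0.59 with an adjusted p of 0.212. Across the alternatives the difference lay between -1.71 and -1.23 in LAR and between -1.87 and -1.21 in TERM, with 0 of them past the threshold. The lymphocyte list had medians of 56777 CPM at 3 months and 72842 CPM at 8 months in LAR, and of 65443 and 43785 CPM in TERM, with 0 of 3 members called. In spleen edgeR called 0 of 914 miRNAs in LAR and 0 of 961 in TERM (105 and 133 at an unadjusted p under 0.05).

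**Figure D4:**
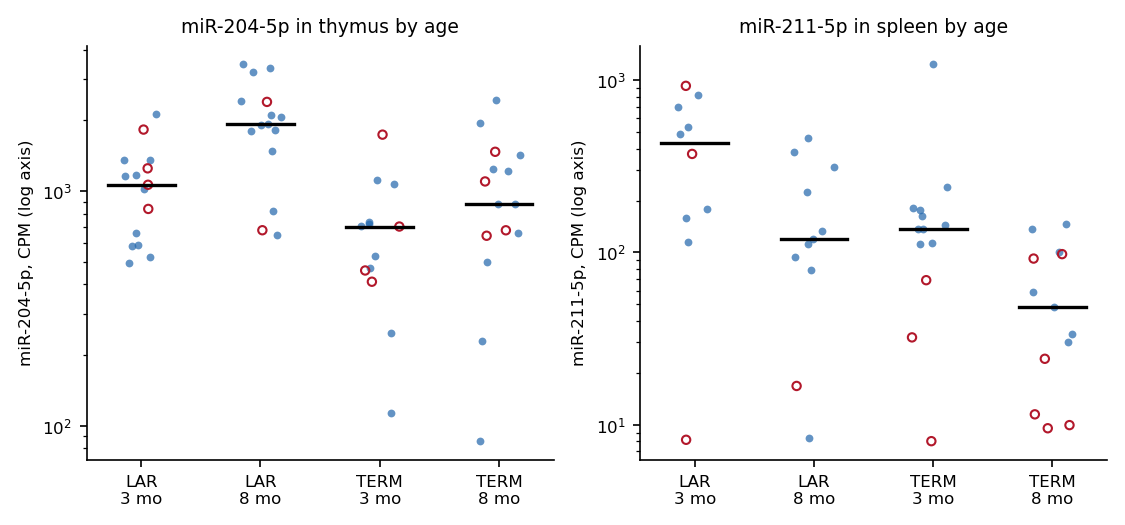
Levels of miR-204-5p in thymus and miR-211-5p in spleen by extraction and age (CPM, log axis). Lines are medians of all libraries and open circles are libraries of mismatch pools. In LAR the thymus medians were 1063 and 1931 CPM at 3 and 8 months, and the spleen medians 430 and 120 CPM.

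The brain could be compared by age in TERM alone, where both 5p miRNAs had lower medians at 8 months. miR-204-5p ranged from 12727 to 40810 CPM with a median of 25482 CPM at 3 months (n = 8) and from 3935 to 19529 CPM with a median of 13002 CPM at 8 months (n = 5). The groups overlapped, and the log2 difference was -1.10 ± 0.39 with an adjusted p of 0.379. Outside the mismatch pools it was -0.90 ± 0.38 with an adjusted p of 0.890. miR-211-5p had medians of 417 and 158 CPM, a difference of -1.14 ± 0.48 with an adjusted p of 0.432, and of -0.84 ± 0.42 outside these pools. With plate as a term miR-204-5p differed by -2.08 with an adjusted p of 0.0908.

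The interaction of age and flight, which asks whether FL against HGC differed between 8 and 3 months, was fitted in the 12 tissues of LAR. In the edgeR test it gave 0 calls of 36, against 0.113% of all tests, with 8 at an unadjusted p under 0.05, beside 9.29%. The largest value was that of miR-204-5p in pancreas, 4.58 ± 1.61 with an adjusted p of 0.163, and it was -0.81 without the mismatch pools. In thymus miR-204-3p gave -2.78 ± 0.82 with an adjusted p of 0.237. The median SE was 1.00 on the log2 scale.

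LAR and TERM were compared over the 3 arms, in a contrast that called 6.81% of all tests. Of the members, 1 of 39 was called by edgeR, miR-211-5p in MAT, where 37.5% of all miRNAs were called. It ranged from 0.764 to 192 CPM with a median of 17.5 CPM in LAR (n = 28) and from 10.8 to 246 CPM with a median of 58.8 CPM in TERM (n = 29), and fell by 1.51 on the log2 scale in LAR (SE 0.37, adjusted p = 0.00095). The call held when each of the 57 libraries was left out in turn, with adjusted p of at most 0.00224. The minor arm miR-211-3p had a count in 2 of 28 LAR and 8 of 29 TERM libraries, with a median of 0 in each, so no fold is given. miR-204-5p had medians of 385 CPM in LAR and 291 CPM in TERM.

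The MAT libraries were of mixed makeup, and it differed between the extractions. In LAR 19 of 28 were closest to pancreas and 1 to spleen, whereas in TERM 2 of 29 were closest to pancreas and 11 to spleen. The 11 spleen-like libraries of TERM ranged from 10.8 to 246 CPM of miR-211-5p with a median of 161 CPM, and the 19 pancreas-like ones of LAR from 0.764 to 39.8 CPM with a median of 10.9 CPM. The lymphocyte list had medians of 4958 CPM in LAR (1074 to 91660) and 67635 CPM in TERM (1575 to 188734), and 3 of 3 members were called lower in LAR. The acinar list had 3 of 3 tested members called higher in LAR. Among the 4 and 7 libraries with the MAT profile the difference was -0.21 with an adjusted p of 0.959 in the edgeR test. That profile is the median of all MAT libraries, and these 11 held 3503 to 188734 CPM of the lymphocyte list. They are few and mixed themselves, so they do not set the makeup aside. The part of these cells in the difference was not tested.

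**Figure D5:**
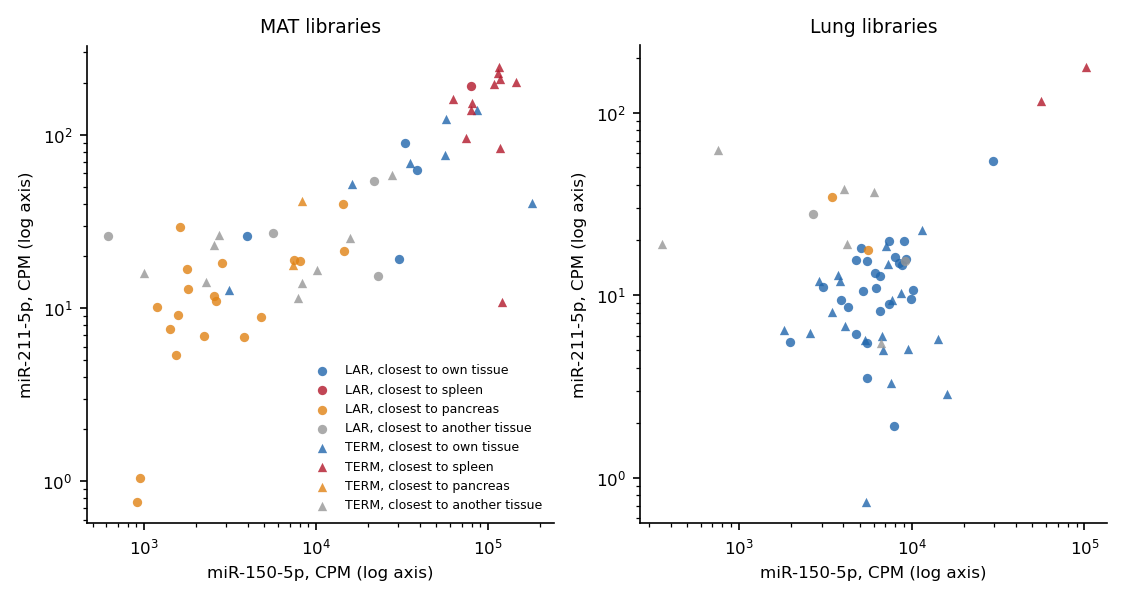
miR-211-5p against miR-150-5p, a miRNA of lymphocytes, in each library of MAT (left) and lung (right), both in CPM on log axes. Circles are LAR and triangles TERM, and colours give the tissue profile a library was closest to, as in the left panel. In MAT the 12 libraries closest to spleen had a median of 177 CPM of miR-211-5p and the 21 closest to pancreas one of 11.8 CPM, and in lung the 2 highest libraries were closest to spleen.

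In thymus both arms of miR-204 were higher in LAR without passing the threshold. miR-204-5p had medians of 1357 CPM in LAR (494 to 3469, n = 30) and 715 CPM in TERM (85.8 to 2439, n = 28), a log2 difference of 0.63 ± 0.23 with an adjusted p of 0.0589. miR-204-3p had medians of 15.4 and 6.11 CPM, a difference of 0.83 ± 0.30 with an adjusted p of 0.0549. Without the mismatch pools the differences were 0.80 and 0.93 with adjusted p of 0.0187 and 0.0374. miR-211-5p differed by 0.28 ± 0.28 with an adjusted p of 0.543. In these libraries the fat list had medians of 57692 CPM in LAR (10976 to 202136) and 26277 CPM in TERM (6967 to 120093), and the muscle and heart list medians of 9186 CPM (263 to 62006) and 2695 CPM (540 to 356911). Their part in the difference was not tested.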

How the data were processed

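Small RNA libraries of 686 samples were made with a kit for short RNA and sequenced by the authors, who counted miRNAs of miRBase 22.1 with miRMaster 2.0 after mapping to GRCm39. The authors deposited estimated counts without normalization, 0.790% of which were not whole numbers. All values of the 3 members were whole. How reads that fit both paralogs were divided is not given in the sources used here.

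CPM was computed per library over all miRNA counts, with depths of 0.181 M to 30.5 M. Counts were rounded, and miRNAs with at least 5 counts in at least 10% of the libraries of any arm were fitted per tissue and extraction with edgeR 4.0.16 (limma 3.58.1, R 4.3.3), TMM factors and a quasi-likelihood test, with calls at p under 0.05 after Benjamini-Hochberg adjustment. The SE is the log2 fold change divided by the root of its F. Age was fitted with arm as a term, and LAR against TERM in 6 groups of arm and extraction. DESeq2 1.42.0 and a Wilcoxon test on CPM were alternatives. The fit was tested on simulated data. Neighbouring tissues were compared within mice (the same arm, extraction and mouse number) by 2-sided sign-flip permutation of log2(CPM + 1), exact up to 16 mice and otherwise with 100000 resamples (scipy). Ratios needed 100 counts of miR-204-5p, and intervals are exact binomial ones at 95%.

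Pool and plate of each library are those in the study's supplementary sample list. Each library was compared with the tissue medians of 727 miRNAs, members left out, and pools with more than 1 in 3 libraries closest to another tissue are the mismatch pools. No pair of libraries of a group was identical, and the lowest chi-square per degree of freedom was 58.2. Equal mouse numbers in different arms are different animals. Samples of a group are separate animals, and a mouse gives 1 library per tissue.

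The members, lists, named miRNAs and tests were chosen with earlier results of these data known. Named are the members, the miRNAs of the same seed, miR-211-3p, the marker lists and the 5 miRNAs most like each member over tissue medians. Other RNA classes were not used. The single libraries with the highest miR-211-5p were named after their values were seen.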

Additional observations from a re-analysis of the deposited data

Results flagged for a closer look

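In the groups of 4 to 10 libraries, 231 combinations of a group and a member were tested for a library that stood apart from the rest on the log2(CPM + 1) scale (Dixon's test). Of these 38 were flagged, where chance gives about 1 in 20. Of the 38 flags, in which some libraries occur more than once, 23 fell on libraries in mismatch pools and 24 on libraries with the profile of another tissue.

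For miR-204-5p the libraries with a brain or other tissue's profile were BAT HGC LAR 12 at 7825 CPM (brain), Liver HGC TERM 11 at 1459 CPM (heart) and Liver VGC TERM 14 at 496 CPM (thymus) among the high ones. The low ones with another profile were BAT FL LAR 12 at 3.38 CPM, Diaphragm FL TERM 5 at 6.25 CPM, Diaphragm VGC TERM 4 at 4.88 CPM and Spleen VGC TERM 4 at 16.0 CPM, all closest to liver, where this miRNA was lowest. Heart HGC LAR 8 at 47.2 CPM and Thymus HGC TERM 14 at 85.8 CPM were closest to lung, and SCAT HGC LAR 16 at 254 CPM to diaphragm. Libraries of their own tissue's profile were Diaphragm HGC LAR 4 at 55.8 CPM, Lung HGC LAR 12 at 26.9 CPM, Pancreas HGC TERM 3 at 19.7 CPM and Thymus VGC TERM 1 at 113 CPM, all low.

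For miR-204-3p, BAT FL LAR 12, Diaphragm VGC TERM 4 and Kidney VGC LAR 4, all closest to liver, were at 0 CPM. BAT HGC LAR 12 was at 86.3 CPM and Heart VGC LAR 13 at 60.5 CPM, both closest to brain, and BAT VGC LAR 3 at 18.0 CPM was closest to pancreas. In liver, HGC LAR 12 stood at 3.74 CPM (spleen profile), HGC TERM 11 at 8.33 CPM (heart profile) and FL TERM 1 at 8.83 CPM with the liver profile. That last library also held 1247 CPM of miR-204-5p and 12850 CPM of miR-124-3p, 67.0-fold and 163-fold its group's medians. SCAT VGC LAR 16 at 3.44 CPM and Thymus FL TERM 11 at 37.2 CPM had their own profiles.

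For miR-211-5p the high libraries closest to a lymphoid tissue were GAT FL TERM 11 at 130 CPM, Kidney VGC TERM 16 at 489 CPM and SCAT VGC TERM 2 at 396 CPM (spleen), and Liver VGC LAR 12 at 296 CPM and Liver VGC TERM 14 at 155 CPM (thymus). BAT HGC TERM 11 at 96.1 CPM was closest to brain. Kidney FL LAR 4 at 731 CPM and Pancreas VGC LAR 14 at 353 CPM had their own profiles. The low ones, all of their own profile, were Diaphragm HGC LAR 4 at 0.534 CPM, Kidney FL TERM 12 at 5.92 CPM, Liver HGC LAR 2 at 0.728 CPM, Liver HGC TERM 3 at 6.61 CPM and Lung HGC LAR 12 at 1.92 CPM.

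The flight effect on miR-211-5p in lung differed between LAR and TERM by 2.62 on the log2 scale in the test of the difference, as given above.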

How the results depend on the processing

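The 234 tissue medians and 104 ratios recomputed under the alternatives moved by less than the SD between libraries of the tissue. This SD takes in libraries with the profile of another tissue, so large moves could stay within it. The ratio of the paralogs in MAT stayed within it at 3.73 in LAR and 28.4 in TERM, beside 5.85 in all libraries. Of 225 recomputed counts of member calls, 202 stayed within 1.5 times. For FL against HGC, LAR had 1 call with filterByExpr (SCAT miR-204-5p), where 1.67% of all tests were called. TERM had 0 under the Wilcoxon test, no filter, plate as a term, own-profile libraries alone, without mismatch pools, and with the replicate block. Of all tests there, 0%, 0.23%, 0.0486%, 0.0625%, 0.0179% and 0.00809% were called, in that order. With the block the lung value was -2.05 (adjusted p = 0.478). Equal mouse numbers did not pair samples across arms (r above 0.1 in 263 of 653 pairs, median 0.0298), and the block changed no other count of arm calls. Neighbouring tissues compared without pairing by mouse gave 5, 3 and 2 differing pairs for miR-204-5p, miR-204-3p and miR-211-5p. FL against VGC in LAR had 1 call with DESeq2 and 1 with RLE factors, where 0.754% and 0.792% of all tests were called. The interaction had 1 without a filter, where 0.199% of all tests were called. LAR against TERM had 4 calls with DESeq2, 4 with own-profile libraries, 4 without mismatch pools, 3 without composition factors and 2 with plate, where 7.90%, 7.15%, 9.53%, 7.12% and 6.13% of all tests were called. The difference of flight effects had 2 calls with DESeq2, where 0.957% of all tests were called. It had 0 with own-profile libraries, without mismatch pools or with plate, where 0.389%, 0.268% and 0.0297% of all tests were called. For age, LAR had 1 call each with DESeq2, own-profile libraries and without mismatch pools, where 0.648%, 1.47% and 1.25% of all tests were called. TERM had 2 with own-profile libraries, where 1.83% of all tests were called. One of these was miR-204-3p in MAT, at 2.86 in only 7 libraries with the MAT profile against -0.42 in all 29, a reversal whose cause was not tested. Of 12 neighbouring tissue pairs, 1 (brain over SCAT) differed for miR-204-3p with a pseudocount of 10, and 5 for miR-211-5p with TMM over all libraries. Single member tests were compared with each alternative where the unadjusted p was under 0.05 or any setting gave a call. In 512 of these comparisons the call stayed, or the test stayed uncalled with a shift under its SE. In 85 the test also stayed uncalled but shifted by at least its SE. The threshold was newly passed in 24, no longer passed in 32, and 1 reversed. Leaving out each library, the age difference of thymus miR-204-5p in LAR ranged from 0.63 to 0.90 and was called in 2 of 30 cases. Levels under 3 counts per library could not be read.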
